A study of Rattus norvegicus with 6 samples.

Results

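The genes described here are Txnip, Arrdc4 and the carbohydrate response genes Mlxipl, Pklr, Acly, Acaca, Fasn, Elovl6, Gpd1 and Me1. They were taken by symbol from the counted genes, and all 10 were present among 17321. RNA was sequenced from islets of fetal Sprague Dawley rats at gestational day 22, with 3 libraries in each of the groups, high glucose and control. Fetuses of the high glucose group lay in the left uterine horn, which received a glucose infusion (4 mg/min) that began on gestational day 20 and lasted 48 h, and the controls lay in the right horn of the same dam. Each library pooled islets from 2 pancreata, picked by hand after collagenase digestion, and both groups then spent 24 h in RPMI medium with 5 mM glucose. Values are therefore those after recovery, and RNA from the time of the infusion was not measured.

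ChREBP, encoded by Mlxipl, is a transcription factor that glucose metabolites activate. With its partner Mlx it binds carbohydrate response elements, paired E-box-like sites with a short spacer, in the promoters of genes for glycolysis and for making fatty acids from sugar. Txnip and its relative Arrdc4 are alpha-arrestins that lower glucose uptake, and Txnip also binds thioredoxin. In beta cells Txnip is among the genes most readily induced by glucose, and it is known for promoting beta cell death.

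The libraries were paired by the shared stem or number of their titles. In 6 of 6 libraries the horn letter of the deposited file name was the opposite of that in the title. Directions follow the treatment labels and would turn under the other naming, with the same p-values. Horn side went with treatment in every pair, so the effects of side and of glucose cannot be told apart. Total counts were 18077841 to 30993532 per library. The p-values for the groups rest on the spread over 3 dam pairs, with each gene's variance estimate drawn partly from other genes. Those for the dam term set differences between dams against the spread left after dam and treatment, with 2 libraries per dam.

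The tissue held endocrine and other cells. Summed markers of beta cells (8 genes, Ins1 and Ins2 among them) lay at 11148 to 22778 CPM (counts scaled to a common library size) in the control libraries and at 4923 to 18554 CPM in the high glucose libraries. Mesenchyme markers (7 genes) lay at 15227 to 35065 and 20917 to 29839 CPM. The control library of pair 1 stood apart. Apoa4, an apolipoprotein of the small intestine, measured 69.3 CPM there and at most 0.186 CPM in the other libraries, and Cdhr5, a brush border cadherin, 105.8 CPM against at most 0.685 CPM. Summed over 9 genes of intestinal epithelium, chosen after the data were seen, that library held 247.5 CPM and the others 0.546 to 2.78 CPM. Of the 9 genes, Lct and Fabp1 were near 0 in that library too, at 0.116 and 0.058 CPM. Lct measured 0.126 CPM in the high glucose library of the pair. Each member's fitted difference is given with and without pair 1. In bulk tissue, fewer cells of a type and less RNA per cell cannot be told apart.

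Across pairs, none of the 10 genes passed the test for a difference between the groups. Of 12276 genes tested with edgeR (quasi-likelihood test with the dam as a block), 2 passed a Benjamini-Hochberg adjusted p of 0.05, which is 0.0163%. All 10 members entered the test and 0 passed, in either direction. At an unadjusted p below 0.05 there was 1 member, Pklr, against 4.82% of all genes tested. DESeq2, voom and the other fits also called 0 of the members. The members' median log2 difference was 0.03, beside 0.00 for all genes tested. The CPM ranges of the groups overlapped for each of the 10, where 3.31% of all genes had groups that did not overlap.

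**Figure D1:**
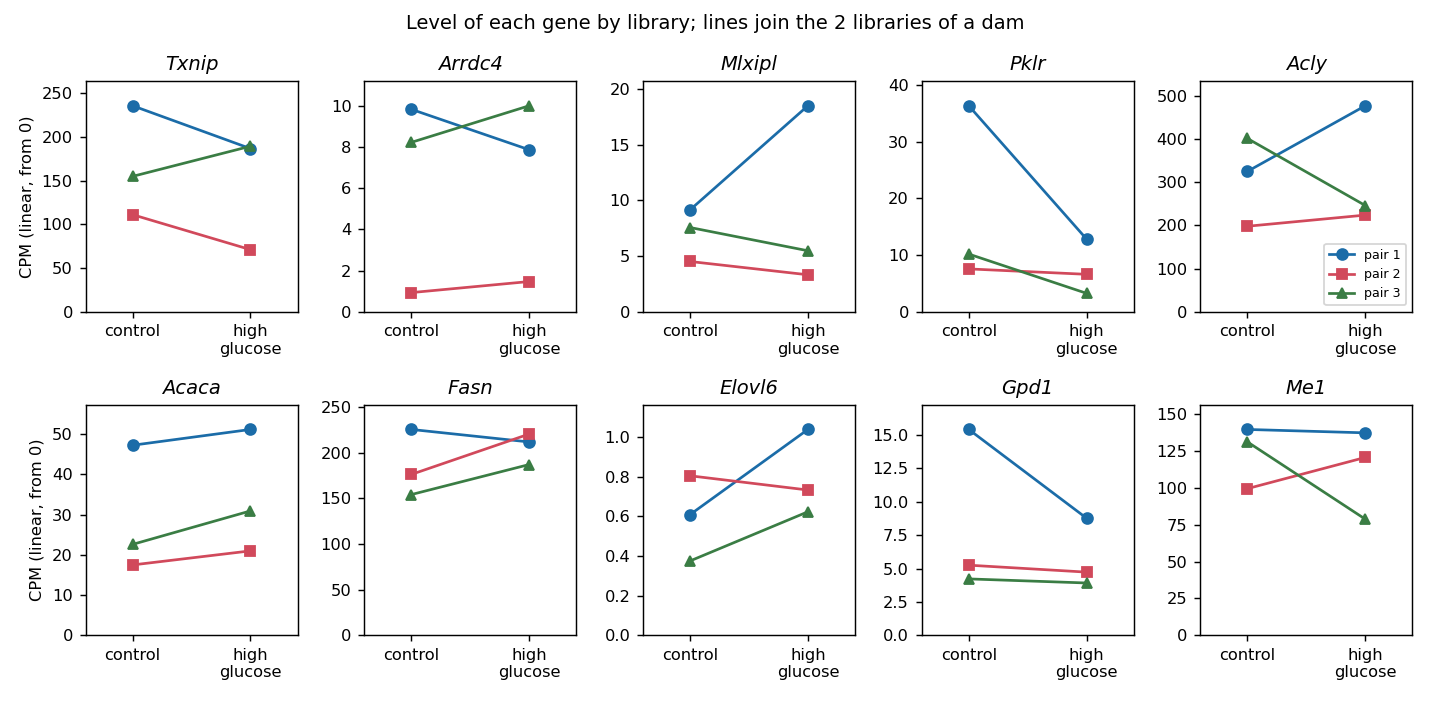
CPM (linear axis from 0) of the 10 genes in the 6 libraries, with a line joining the labelled control and high glucose library of each dam. Pair 2 lies lowest for Txnip, Arrdc4, Mlxipl, Acly and Acaca in both libraries. Pklr and Gpd1 slope down in all 3 pairs and Acaca slopes up.

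Txnip, the first of the arrestins (rn6 chromosome 2, 198683168 to 198686968, plus strand), had no common direction. Its 3 control libraries measured 235.8, 111 and 155 CPM in pairs 1 to 3, and the high glucose libraries 186.7, 71.0 and 189 CPM. The level was lower in high glucose in pairs 1 and 2 and higher in pair 3, and the groups overlapped. The group values were 167.3 ± 63.3 and 149 ± 67.6 CPM (SD, n = 3). The ratio within pair 1 was 0.792 (95% counting interval 0.766 to 0.819), within pair 2 0.640 (0.596 to 0.686) and within pair 3 1.22 (1.18 to 1.27). These intervals cover counting error only, so each pair differed by more than its reads allow while the pairs went opposite ways. The fitted log2 difference was -0.23 (SE 0.21, 95% interval -0.70 to 0.24, edgeR adjusted p = 1). That interval spans ratios from 0.615 to 1.18. Without pair 2 the log2 difference was -0.02, and without pair 3 it was -0.49 (edgeR adjusted p = 0.985).

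Arrdc4 (chromosome 1, 129767227 to 129776276, minus strand) went the way of Txnip in pairs 1 and 3. It measured 9.82, 0.928 and 8.22 CPM in control and 7.86, 1.46 and 9.996 CPM in high glucose. In pair 2 it was close to the limit of the depth, with 15 and 30 counts, and the ratio of 1.58 had a counting interval of 0.823 to 3.16. The ratios were 0.800 (0.677 to 0.945) in pair 1 and 1.22 (1.03 to 1.44) in pair 3. The fit gave a log2 difference of 0.16 (SE 0.33, 95% interval -0.58 to 0.90, edgeR adjusted p = 1). It was 0.43 without pair 1 and -0.02 without pair 2. The annotated exons of Arrdc4 sum to 943 bases.

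Mlxipl, the gene of ChREBP itself (chromosome 12, 24590645 to 24619639, minus strand), went different ways in the pairs. The control libraries measured 9.16, 4.52 and 7.57 CPM and the high glucose libraries 18.5, 3.32 and 5.48 CPM. The high glucose library of pair 1 was the highest of the 6, and in pairs 2 and 3 the high glucose library was the lower one. The ratios were 2.02 (1.76 to 2.33), 0.735 (0.521 to 1.04) and 0.724 (0.591 to 0.886). Beta cell markers moved in the same order, with summed log2 differences of 0.73, -0.33 and -2.21, and their part in the result was not tested. The fitted log2 difference of Mlxipl was 0.05 (95% interval -0.76 to 0.86, edgeR adjusted p = 1), and -0.46 without pair 1.

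Pklr, the pyruvate kinase of liver, beta cells and red cells (rn6 chromosome 2, 188449661 to 188458034, plus strand), was the member with the largest difference. It is the textbook ChREBP target, and red cells make their own form of the enzyme from another promoter of the same gene. Gene counts do not separate the forms. Its control libraries measured 36.3, 7.55 and 10.2 CPM and the high glucose libraries 12.8, 6.59 and 3.24 CPM. The level was lower in high glucose in all 3 pairs, as for 11.3% of all genes tested, and the control library of pair 1 was the highest of the 6. The ratios were 0.352 (0.314 to 0.394), 0.874 (0.679 to 1.13) and 0.319 (0.252 to 0.400), so pair 2 did not differ beyond counting error. Pklr did not pass, with a fitted log2 difference of -1.13 (SE 0.32, 95% interval -1.85 to -0.42, edgeR adjusted p = 0.553). It ranked 120 of 12276 by p. Over the alternatives the adjusted p lay between 0.119 (DESeq2) and 1 (no block). Without pair 1, the pair with intestinal transcripts, the log2 difference was -0.93 (edgeR adjusted p = 0.743), and without pair 2 it was -1.57 (edgeR adjusted p = 0.169).

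Of the marker lists, the erythroid, red cell membrane and immune ones were lower in high glucose in all 3 pairs, as Pklr was. Summed erythroid markers (Hbb, Alas2, Hba1 and Hba2) ranged from 352 to 1394 CPM in control and from 82.8 to 590.5 CPM in high glucose. Pair by pair the log2 difference was -3.25, -1.24 and -2.09. Hba1 and Hba2 were at or near 0, at most 0.247 CPM. Red cell membrane genes, a list added after the data were seen, summed to 21.1 to 182 CPM and 1.71 to 9.03 CPM. For these the log2 differences were -6.39, -1.22 and -4.33. Immune markers (5 genes) differed by -0.46, -0.36 and -1.21. Intestinal epithelium genes, here 10 with Vil1 added to the 9 above, differed by -3.23 in pair 1 and by -0.09 and 0.23 in pairs 2 and 3. Vil1 measured 193.5 CPM in the control library of pair 1 and 28.6 to 59.4 CPM elsewhere, where it made up most of that sum. In pair 3, where Pklr had a ratio of 0.319, Apoa4 measured 0.0341 and 0 CPM and Cdhr5 0.443 and 0.685 CPM. Beta cell markers differed by 0.73, -0.33 and -2.21, higher in pair 1 and, like Pklr, lower in pairs 2 and 3. Duct markers were higher in all 3 pairs (1.09, 0.47 and 0.58). Mixed directions were seen for alpha cell (0.35, 0.75 and -2.03), acinar (-0.42, 0.55 and 4.39) and endothelial markers (0.03, -1.42 and -0.36). Mesenchyme markers were mixed as well (0.46, -0.20 and -0.23). Pklr and the erythroid, red cell membrane and immune lists each moved least in pair 2. So did the intestinal, beta cell, duct and mesenchyme lists. The part of any of these cells in the result was not tested.

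**Figure D2:**
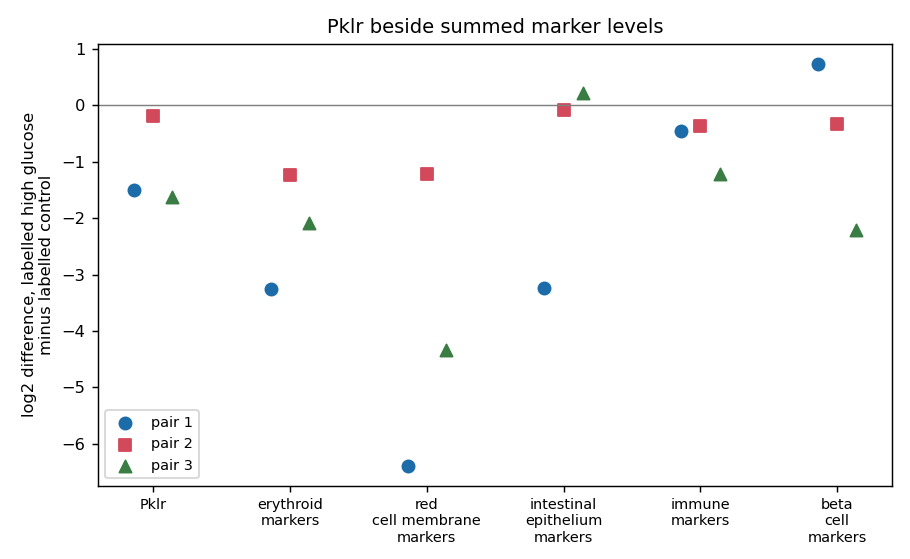
Log2 differences within each pair (labelled high glucose minus labelled control) of Pklr and of summed marker CPM. Pklr and the erythroid, red cell membrane and immune lists are below 0 in all 3 pairs and nearest to 0 in pair 2. Intestinal epithelium genes (10, with Vil1) are far below 0 in pair 1 alone. Beta cell markers are above 0 in pair 1 and below 0 in pairs 2 and 3.

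Promoter windows of the members that the results turn on are shown for their response elements. RefSeq's table for the GRCr8 build (250 bases before to 50 after the start site) held windows of 5 members, namely Arrdc4, Mlxipl, Pklr, Acly and Me1. Txnip, Acaca, Fasn, Elovl6 and Gpd1 had no entry. The search was for 2 CACGTG sites with any 5 bases between them, with at most 3 mismatches among the 12 letters of both sites. Such a pair reads alike on both strands, and it can overlap the E-box motif CACGTG, which was searched alone with no mismatch. In both windows below the capitals mark the matched sites.
Pklr (chr2:176841014-176841313, plus strand): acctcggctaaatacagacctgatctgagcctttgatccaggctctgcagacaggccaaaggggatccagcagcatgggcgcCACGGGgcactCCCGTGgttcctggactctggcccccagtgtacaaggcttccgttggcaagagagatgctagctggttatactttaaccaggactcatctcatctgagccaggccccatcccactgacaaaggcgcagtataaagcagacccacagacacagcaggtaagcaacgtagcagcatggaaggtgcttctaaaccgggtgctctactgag
Arrdc4 (chr1:131793376-131793675, minus strand): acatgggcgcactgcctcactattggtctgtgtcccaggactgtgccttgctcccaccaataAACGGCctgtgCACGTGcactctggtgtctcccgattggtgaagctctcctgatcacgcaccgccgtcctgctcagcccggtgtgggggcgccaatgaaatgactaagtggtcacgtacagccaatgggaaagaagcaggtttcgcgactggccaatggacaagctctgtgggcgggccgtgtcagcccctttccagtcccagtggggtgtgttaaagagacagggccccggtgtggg

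The Pklr match had 2 mismatches and lay at positions -168 to -152 from the start site. Among 33469 windows of the same length, 0.953% held a match with at most 2 mismatches. The Arrdc4 match had 3 mismatches, at -188 to -172, and 7.91% of windows held one with at most 3. The site nearer the gene was an intact E-box, which 6.42% of windows held. The windows of Mlxipl, Acly and Me1 held neither motif. A match is a run of letters and says nothing of binding in these islets.

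The enzymes that turn sugar carbon into fatty acids did not pass either. Acly, Acaca and Fasn lie on rn6 chromosome 10, from 88392248, 71519392 and 109987735 to 88442845, 71719910 and 110005901. Acly, which cleaves citrate to acetyl-CoA in the cytosol, measured 325, 198 and 401 CPM in control and 477, 223.7 and 246 CPM in high glucose. It was higher in high glucose in pairs 1 and 2 and lower in pair 3, with ratios of 1.47 (1.43 to 1.504), 1.13 (1.08 to 1.18) and 0.613 (0.596 to 0.631). Over the pairs the log2 difference was 0.01 (95% interval -0.55 to 0.57, edgeR adjusted p = 1). It was -0.27 without pair 1, -0.08 without pair 2 and 0.37 without pair 3.

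Acaca, the carboxylase that makes malonyl-CoA, was the member higher in all 3 pairs, as 11.7% of all genes tested were. It measured 47.2, 17.5 and 22.6 CPM in control and 51.2, 21.0 and 30.9 CPM in high glucose. The ratios were 1.08 (1.01 to 1.16), 1.20 (1.03 to 1.399) and 1.37 (1.24 to 1.51). The difference was small beside the spread between dams, and the fitted log2 difference of 0.28 (SE 0.20, 95% interval -0.17 to 0.72) had an edgeR adjusted p of 1.

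Fasn, the fatty acid synthase, measured 225.6, 176 and 154 CPM in control and 212, 220.6 and 187 CPM in high glucose. It was lower in pair 1 (ratio 0.939, 0.909 to 0.971) and higher in pairs 2 and 3 (1.25 and 1.21). The fit gave a log2 difference of 0.17 (95% interval -0.24 to 0.58, edgeR adjusted p = 1), with 0.30 when pair 1 was left out and 0.09 when pair 2 was. Me1 (rn6 chromosome 8, 94256839 to 94368834, minus strand), the cytosolic malic enzyme that supplies NADPH, measured 139, 99.3 and 131 CPM in control and 137, 120.5 and 78.7 CPM in high glucose. Its ratio was 0.984 (0.944 to 1.02) in pair 1, 1.21 (1.14 to 1.29) in pair 2 and 0.601 (0.571 to 0.632) in pair 3. The fitted log2 difference of Me1 was -0.16 (95% interval -0.64 to 0.32, edgeR adjusted p = 1), and 0.13 without pair 3. In pair 3, Acly, Me1, Pklr, Mlxipl and Gpd1 were lower in high glucose, while Txnip, Arrdc4, Acaca, Fasn and Elovl6 were higher. Gpd1 and Elovl6 did not differ there beyond counting error. Summed beta cell markers went from 22778 to 4923 CPM in that pair. Alpha cell markers went from 4468 to 1097 CPM and acinar markers from 35.7 to 748 CPM. The part of cell content in the members' values was not tested.

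Gpd1 (rn6 chromosome 7, 141370540 to 141377930, plus strand), the cytosolic dehydrogenase that provides the backbone of triglycerides, was lower in all 3 pairs. Its values were 15.4, 5.26 and 4.23 CPM in control and 8.77, 4.74 and 3.92 CPM in high glucose. Pair 1 stood out, with a ratio of 0.569 (0.490 to 0.659) against 0.901 (0.666 to 1.22) and 0.928 (0.718 to 1.20). The fitted log2 difference was -0.37 (95% interval -1.05 to 0.32, edgeR adjusted p = 1), and -0.13 without pair 1. The high value came from the library with intestinal transcripts, whose part in it was not tested.

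Elovl6 (rn6 chromosome 2, 234187490 to 234483145), which lengthens palmitate to stearate, was barely counted. It had 21, 13 and 11 counts in control and 33, 15 and 20 in high glucose, and the 3 counting intervals of its ratios all included 1. Its fitted log2 difference was 0.47 (95% interval -0.89 to 1.82, edgeR adjusted p = 1), and it was 0.29 without pair 1 and 0.75 without pair 2. Its rn6 model holds 6 exon blocks on the minus strand and 5 on the plus strand, and 4 of those 5 have the length of a block on the other strand. A read pair that maps equally well to 2 such copies falls below the mapping quality minimum of 10, so the level of Elovl6 is uncertain.

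**Figure D3:**
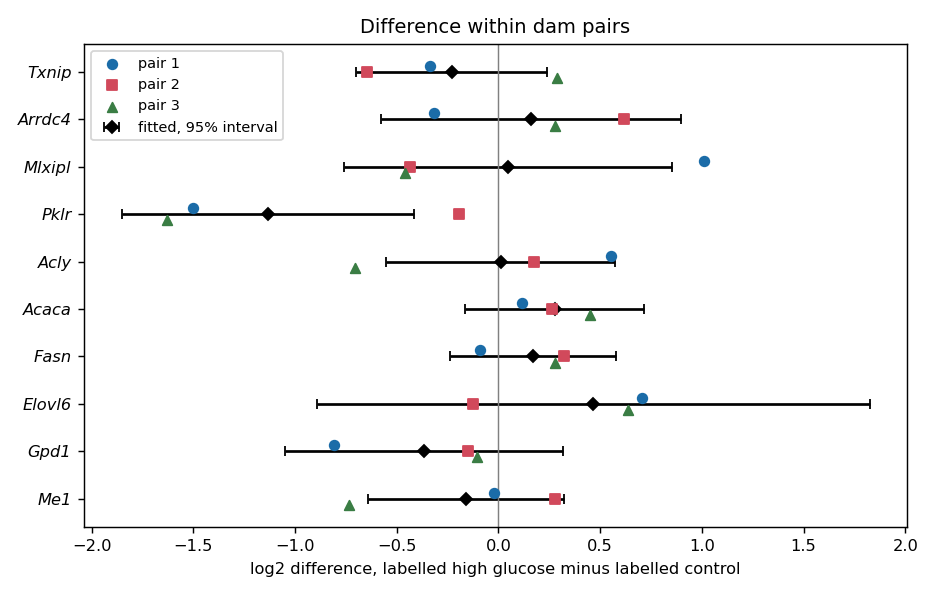
Log2 differences, labelled high glucose minus labelled control, as fitted over 3 pairs (diamonds, with 95% intervals) and within each pair (coloured points). The interval of Pklr lies below 0 before adjustment over all genes, the other 9 intervals include 0, and the points of 7 genes fall on both sides of 0.

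Each pair moved the members in both directions. The ratio was above 1 for 4, 5 and 5 of the 10 genes in pairs 1, 2 and 3. The median log2 differences were -0.06, 0.03 and 0.09, beside 0.001, 0.020 and -0.016 for all genes tested. The counting interval excluded 1 for 8, 5 and 8 members. That count was not taken over all genes, so it does not say whether the members stand out. Pklr and Gpd1 were lower in all 3 pairs and Acaca higher, and the other 7 members had mixed directions. For the genes not yet given without pair 1, the log2 difference was then -0.18 for Txnip, 0.36 for Acaca and -0.23 for Me1.

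Between dams, 2795 of 12276 genes differed (22.8%, edgeR F-test of the dam term, adjusted p below 0.05), and 6 of the 10 members were among them. A dam here stands for all that its 2 libraries share, including handling, and the libraries of pair 2 were the shallowest. The members called were Arrdc4, Acaca, Pklr, Txnip, Gpd1 and Mlxipl, and Acly, Me1, Fasn and Elovl6 did not pass.

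Arrdc4 varied most between dams. The mean of its 2 libraries was 8.84 CPM in dam 1, 1.20 in dam 2 and 9.11 in dam 3, so dam 2 was 7.39-fold below dam 1 (edgeR adjusted p = 0.00498). The means of Txnip were 211, 91.1 and 172 CPM, 2.32-fold lower in dam 2 than in dam 1 (edgeR adjusted p = 0.0196). Both arrestins were lowest in dam 2, and Txnip's higher library of that dam (111 CPM) lay below every library of the other dams (155 to 235.8 CPM). Another arrestin, Arrdc3, which takes part in receptor trafficking, had dam means of 81.6, 15.5 and 25.9 CPM (edgeR adjusted p = 0.00172). The remaining alpha-arrestins tested did not pass the dam term, with 37.8, 40.8 and 44.7 CPM for Arrdc1 (edgeR adjusted p = 0.685) and 4.26, 3.79 and 4.96 CPM for Arrdc2 (edgeR adjusted p = 0.776).

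Acaca had dam means of 49.2, 19.2 and 26.8 CPM (edgeR adjusted p = 0.0101) and Mlxipl 13.8, 3.92 and 6.53 CPM (edgeR adjusted p = 0.0358, and 0.0618 with voom). Pklr and Gpd1 were high in dam 1 alone. Pklr had dam means of 24.6, 7.07 and 6.70 CPM (edgeR adjusted p = 0.0126) and Gpd1 12.1, 5.00 and 4.08 CPM (edgeR adjusted p = 0.0264). The calls depended on which pairs were kept, and these fits were chosen after the data were seen. Without pair 1, 2 remained, Txnip and Arrdc4 (edgeR adjusted p = 0.024 and 0.000154). Without pair 2, 1 remained, Pklr (edgeR adjusted p = 0.0253), and 216 genes were called in all. Without pair 3, 7 members were called, Acly being the one added (edgeR adjusted p = 0.00499). Summed acinar markers (8 genes) were highest in pair 2, at 1048 and 1534 CPM (control, then high glucose). They were at 215 and 161 CPM in pair 1 and at 35.7 and 748 CPM in pair 3, a wide gap within 1 dam. Of the 7 acinar genes tested, 1 was called for the dam term, and their part in these values was not tested.

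**Figure D4:**
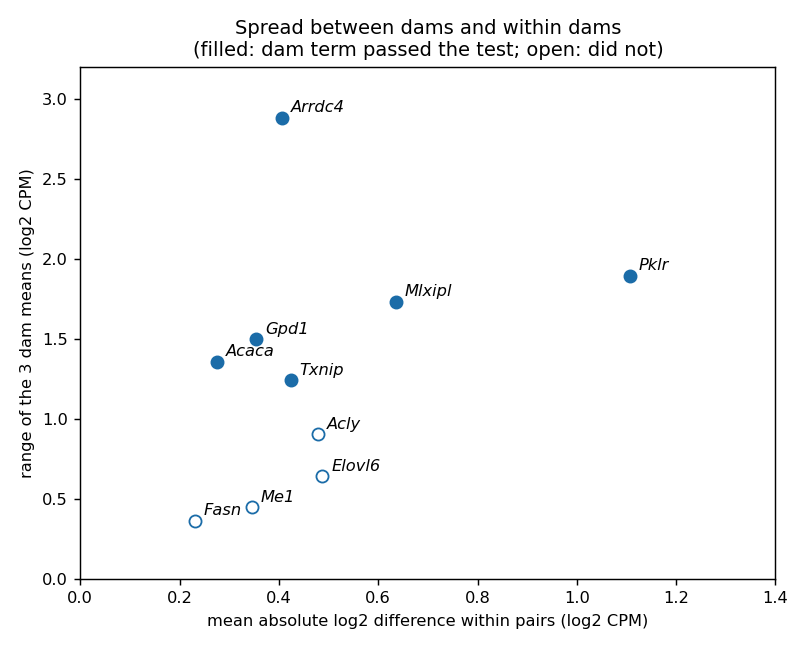
Range of the 3 dam means (log2 CPM, vertical) against the mean absolute difference within pairs (log2 CPM, horizontal) for each gene, filled where the dam term passed. Arrdc4 has the widest range, 2.88, at a within-pair difference of 0.41, and Fasn has the narrowest range, 0.36.

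The members covered a wide span of levels. Per length (CPM divided by kilobases of exon), Acly led with 72.0 ± 25.4 (SD over 6 libraries), followed by Txnip at 57.7 ± 21.7, Me1 at 38.3 ± 7.82 and Fasn at 21.4 ± 3.07. These levels put Acly above 88.2% and Txnip above 85.2% of all genes tested. Acly exceeded Txnip in 4 of 6 libraries and Txnip exceeded Me1 in 5 of 6, so these neighbours did not separate beyond their spread, while Me1 exceeded Fasn in 6 of 6.

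The remaining genes were lower. Arrdc4 measured 6.77 ± 4.36, Acaca 4.65 ± 2.09, Pklr 4.37 ± 4.10, Mlxipl 2.78 ± 1.90 and Gpd1 2.498 ± 1.58 on that per-length scale. Within this group the higher neighbour led in 3 or 4 of 6 libraries, so the order is not fixed by these data. Fasn exceeded Arrdc4, and Gpd1 exceeded Elovl6 (0.140 ± 0.044), in 6 of 6 libraries. Pkm, the pyruvate kinase of most tissues, reached 333 on the same scale, beside the 4.37 of Pklr.

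**Figure D5:**
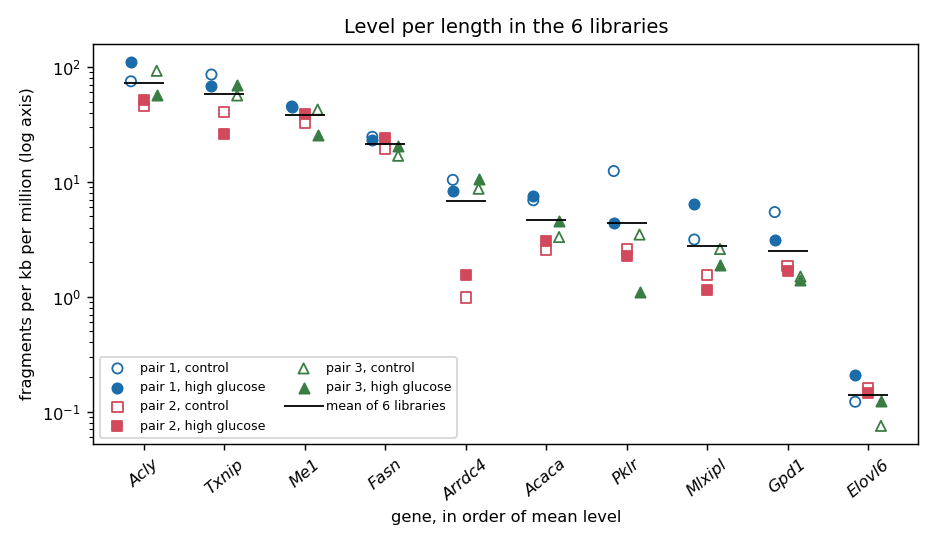
CPM per kilobase of exon (log axis) of the 10 genes in the 6 libraries, in order of their mean, with open symbols for labelled control and filled symbols for labelled high glucose. Acly, Txnip, Me1 and Fasn lie above the other 6 genes, and Arrdc4 splits between pair 2 and the rest.

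Across the 6 libraries, which share dams and are few, the log2 level of Txnip ran closest to Rnf24, a ring finger protein, and to Tbc1d24, Scyl3, Hdac9 and Ppp1r16b. Pearson's r with Txnip was 0.987 to 0.995 for these 5, out of 11771 genes compared, and is a description only. High values were common, with r above 0.9 for 414 genes. For Arrdc4 r was 0.86, higher than for 92.9% of the genes compared. The values were 0.77 for Acaca, 0.73 for Mlxipl, 0.58 for Acly, 0.54 for Gpd1 and 0.44 for Pklr. Me1 had 0.10, Fasn 0.01 and Elovl6 -0.14.

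Other genes of the pathway gave no call in either direction between the groups. This held for 8 of 8 tested network factors (relatives and partners of Mlx and Max), 18 other carbohydrate response targets, 13 genes of fatty acid synthesis, 3 alpha-arrestins, 6 genes of the thioredoxin system and 10 sister enzymes of the members. The median log2 differences were -0.03, -0.13, 0.01, 0.00, -0.21 and -0.14 in that order.

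Among the network factors, Mxd1, a repressor that pairs with Max, measured 26.7 ± 23.2 and 16.8 ± 6.86 CPM (control, then high glucose; SD, n = 3). Mxd3, its relative, measured 9.58 ± 6.13 and 11.1 ± 7.44 CPM. Max and Myc, which had the highest levels per length there, had log2 differences of 0.05 and -0.02.

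Among the other targets, Tm6sf2, a lipid export gene of liver and gut, had 3.88 CPM in the control library of pair 1 and 0.0977 to 0.409 CPM elsewhere. Tm6sf2 and Mxd1 had their highest value in the library with intestinal transcripts, as did the members Txnip, Pklr, Fasn, Gpd1 and Me1. For Fasn (225.6 CPM) and Me1 (139 CPM) the next library was close, at 220.6 and 137 CPM. Dgat2 (39.2 CPM), Insig1 (77.9 CPM) and Txnrd1 (532.8 CPM), among other genes of the lists, were also highest there. Others, such as Ldha and Scd2, were highest elsewhere. The members Mlxipl, Acly, Acaca and Elovl6 were highest in the high glucose library of pair 1, and Arrdc4 in that of pair 3. The share of all genes highest in the control library of pair 1 was not computed. The part of intestinal transcripts in these values was not tested. Ldha and Tkt, of lactate and pentose metabolism, had log2 differences of -0.03 and -0.20.

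In fatty acid synthesis, Acsl3, which activates fatty acids, and Srebf1, the gene of SREBP-1, were higher in all 3 pairs, 2 of 13 genes beside 11.7% of all genes tested. Acss2, which makes acetyl-CoA from acetate, was the 1 gene of the list lower in all 3 pairs (log2 difference -0.33, edgeR adjusted p = 1), and it is named for that count after its values were seen. Acsl3 measured 92.5 ± 9.41 and 124.1 ± 35.8 CPM and Srebf1 48.7 ± 6.74 and 58.4 ± 11.01 CPM, and neither passed (edgeR adjusted p = 1). Scd2, a desaturase, and the citrate carrier gene Slc25a1 had log2 differences of 0.27 and -0.04.

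The thioredoxin gene Txn1, whose product Txnip binds, measured 267 ± 15.7 and 231 ± 130 CPM. Nlrp3, an inflammasome gene linked to Txnip, measured 3.79 ± 0.929 and 2.66 ± 1.38 CPM, and mitochondrial Txn2 188 ± 56.2 and 164 ± 47.7 CPM. Nlrp3, Txn2 and Txnrd3, 3 of the 6 genes of this list, were lower in all 3 pairs, beside 11.3% of all genes tested. The arrestins Arrdc1, Arrdc2 and Arrdc3 had log2 differences of 0.00, -0.11 and 0.02. The sister enzymes Me2, Hk2, Pkm and Elovl1 had log2 differences of -0.33, 0.31, -0.06 and -0.17, and none of these passed.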

How the data were processed

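RNA was sequenced from 6 libraries of fetal rat islets with a stranded mRNA kit, per the labels' protocols. Each deposited table holds unnormalized counts, which per the file headers came from featureCounts 1.5.1 in paired mode (strand setting 2, mapping quality of at least 10, UCSC refGene annotation of rn6). Alignment with STAR 2.5, and edgeR 3.12.1, are named in the submitters' processing notes, which list the mouse build mm10 beside rn6. The exon length per gene is deposited beside the counts.

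Tests used edgeR 4.0.16 under R 4.3.3 (TMM, filterByExpr, robust quasi-likelihood F-test, dam plus treatment, Benjamini-Hochberg adjustment over 12276 genes holding 99.95% of counts). The standard error is the absolute log2 difference over the root of F. CPM and per-length values use TMM-scaled totals, and log2 CPM a prior count of 2. Counting intervals are exact (Clopper-Pearson). Alternatives used DESeq2 1.42.0 and limma 3.58.1 (voom). The procedure was tested on simulated data.

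Pairing comes from the series design. Deviations from group means correlated at 0.47, 0.62 and 0.41 across genes for libraries of one dam. Members and lists were chosen with earlier results of these data known. All members are named. Per list, called genes are named, or otherwise the 2 of smallest p and 2 of highest level, 1 of these not being reported here, and for Txnip the 5 most correlated genes with a mean count of at least 20. Mlxip, Mga, G6pc2, Mafa, Krt7, Cdx1 and Sis were not analysed here. Symbols Scd1, Dak and Txn were matched through RefSeq synonyms. Hepatocyte markers (6 genes) summed to 93.8 to 180 CPM, adipocyte markers (6) to 62.6 to 105 CPM, glial markers (4) to 58.3 to 155 CPM, alpha cell markers (5) to 1097 to 4468 CPM, duct markers (5) to 1240 to 5344 CPM and endothelial markers (5) to 216 to 647 CPM.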

Additional observations from a re-analysis of the deposited data

How the results depend on the processing

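The count of 0 members called between the groups held in all 12 alternatives. Over all genes, 2 were called, against 0 with no replicate block (192 at an unadjusted p below 0.05), 1 with voom, 4 with upper-quartile factors, 18 with no filter, 5 where a mean count of 50 was required and 106 with DESeq2, and 18 to 55 when 1 pair was left out. The directions of Txnip, Pklr, Acaca, Fasn, Elovl6 and Gpd1 held in every alternative that gave a value. With 1 pair left out, log2 differences ranged from -0.019 to 0.43 for Arrdc4, from -0.46 to 0.33 for Mlxipl, from -0.27 to 0.37 for Acly, from -0.38 to 0.13 for Me1, from 0.09 to 0.30 for Fasn and from 0.29 to 0.75 for Elovl6. The sign turned without pair 1 for Mlxipl, without pair 1 or 2 for Acly, without pair 2 for Arrdc4 and without pair 3 for Me1. Acly was also at -0.012 with upper-quartile factors. For the dam term, 1 to 7 members and 216 to 3878 genes were called when 1 pair was left out. Leaving out pairs for the dam term, and scaling by total counts alone, were chosen after seeing the data. The cause of these changes was not tested. With the fewest counts, Arrdc4 in pair 2 and Elovl6 had wide counting intervals. The level of Elovl6 is also uncertain because of its gene model.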

Other observations

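Among the 18 other carbohydrate response targets, 6 differed between dams (edgeR F-test of the dam term), beside 22.8% of all genes tested, and they were looked at by dam after their values were seen. The other lists gave 2 of 8 network factors, 0 of 13 genes of fatty acid synthesis, 1 of 3 alpha-arrestins, 2 of 6 genes of the thioredoxin system and 2 of 10 sister enzymes. Rgs16, a regulator of G protein signalling, had dam means of 11.1, 5.73 and 20.3 CPM (edgeR adjusted p = 0.0135). The circadian repressor gene Bhlhe40 had 102, 68.8 and 167 CPM (edgeR adjusted p = 0.014), and Gpam, which starts triglyceride synthesis, 22.7, 7.76 and 15.7 CPM (edgeR adjusted p = 0.0115). These 3 were lowest in dam 2, where Txnip, Arrdc4 and Arrdc3 were also lowest. The other 3 were not, for Pgd of the pentose phosphate pathway had 455, 681 and 276 CPM, and Ldha 452, 626 and 940 CPM, and Tkt was lowest in dam 3. Over all genes called for the dam term, 49.2% were lowest in dam 2.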
